A study of Mus musculus with 8 samples.

Results

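The genes of the basement membrane and of the collagen family were followed through 3 lists of open chromatin from mouse embryonic stem cell-derived cardiac progenitors. The set holds every collagen gene (Col), every laminin chain gene (Lama, Lamb, Lamc), the nidogens Nid1 and Nid2, the perlecan gene Hspg2 and the agrin gene Agrn on the autosomes, which makes 57 of 20661 autosomal protein-coding genes. A peak was counted for one of them when its summit had that gene as the nearest protein-coding gene within 100 kb, so the link between a peak and a gene is one of position, and no measure of regulation or of RNA stands behind it. By this rule 346 of 63904 autosomal peaks of the D7 GLI1 list, 312 of 58220 of the D7 control list and 189 of 46805 of the D5 control list belonged to the set. After overlapping peaks were merged, these were 248 of 42192 regions with GLI1 at 51 genes, 244 of 37973 in D7 control at 47 genes and 178 of 38281 in D5 control at 52 genes. Of the 57 genes, 55 had a region in at least 1 list; Col10a1 and Col11a2 had none.

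The assay was ATAC-seq: a transposase cuts DNA where chromatin is accessible and attaches sequencing adapters there. All 8 libraries came from the line GLI1-FTA on the A2Lox.cre strain, differentiated in culture towards cardiac progenitors, with 150000 cells collected per library. The groups were D7 cells with GLI1 overexpressed by 500 ng/ml doxycycline for 48 hours (3 libraries, D7 GLI1), D7 cells without GLI1 induction (3 libraries, D7 control) and cells at D5 (2 libraries, D5 control). Each group is represented by 1 pooled peak list, so there is no replicate check on any value below and no p-value is given. Since the labels name doxycycline for the GLI1 group only, effects of the drug and of GLI1 cannot be told apart.

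GLI1 is a zinc finger transcription factor through which Hedgehog signals switch on their target genes. Collagens are triple-helical proteins of the extracellular matrix: fibrillar collagens such as types I, II, III and V build the fibrils of connective tissue, and type IV collagen builds the network of basement membranes, the thin sheets under epithelia and around muscle and endothelium. Laminins, trimers of an alpha, a beta and a gamma chain, form the other network of that sheet, and nidogens and perlecan link the networks. In the embryonic heart such matrix lies between myocardium and endocardium and around the forming vessels, and its fibrillar part is made mainly by mesenchymal cells.

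Promoter sequences show what lies just before the starts of 6 genes whose regions are described below: the perlecan gene with the most lost regions, agrin as the strongest start among the linker proteins, a nidogen whose start was alike in both D7 lists, the type XVIII collagen gene with the largest fold ratio, the fibrillar collagen gene Col3a1, whose start was listed at D7 only, and Col7a1, whose start was listed at D5 only. The sequences are from RefSeq on GRCm38.p6 (mm10), run 5′ to 3′ on the gene's strand and end at the last base before the annotated gene. Capitals mark GC boxes, spelled GGGCGG, boxes spelled CCAAT, and TATA boxes, spelled TATAAA, each searched on both strands, so the complement read backwards is marked too. The windows are chr4:137468553-137468750 on the plus strand for Hspg2, chr4:156197534-156197738 on the minus strand for Agrn, chr13:13437352-13437601 on the plus strand for Nid1, chr10:77166531-77166780 on the minus strand for Col18a1, chr1:45311288-45311537 on the plus strand for Col3a1 and chr9:108953336-108953585 on the plus strand for Col7a1.
Hspg2: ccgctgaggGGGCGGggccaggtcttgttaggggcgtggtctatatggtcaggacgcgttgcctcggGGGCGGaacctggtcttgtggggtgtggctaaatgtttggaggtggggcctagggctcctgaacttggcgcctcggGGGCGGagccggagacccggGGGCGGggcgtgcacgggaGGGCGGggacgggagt
Agrn: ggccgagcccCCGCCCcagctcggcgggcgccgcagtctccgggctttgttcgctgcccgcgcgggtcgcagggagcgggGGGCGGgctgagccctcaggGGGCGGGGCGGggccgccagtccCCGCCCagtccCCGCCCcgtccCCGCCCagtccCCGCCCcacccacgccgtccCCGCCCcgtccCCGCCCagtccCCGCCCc
Nid1: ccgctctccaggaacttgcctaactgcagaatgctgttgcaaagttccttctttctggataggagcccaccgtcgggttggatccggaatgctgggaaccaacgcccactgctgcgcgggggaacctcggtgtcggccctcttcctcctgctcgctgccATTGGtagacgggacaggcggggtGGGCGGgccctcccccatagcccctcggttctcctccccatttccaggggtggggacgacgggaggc
Col18a1: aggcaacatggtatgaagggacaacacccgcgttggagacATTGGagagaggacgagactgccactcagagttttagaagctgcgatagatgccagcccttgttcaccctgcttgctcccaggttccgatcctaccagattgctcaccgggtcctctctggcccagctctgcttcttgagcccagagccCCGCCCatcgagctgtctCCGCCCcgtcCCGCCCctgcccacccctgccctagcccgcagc
Col3a1: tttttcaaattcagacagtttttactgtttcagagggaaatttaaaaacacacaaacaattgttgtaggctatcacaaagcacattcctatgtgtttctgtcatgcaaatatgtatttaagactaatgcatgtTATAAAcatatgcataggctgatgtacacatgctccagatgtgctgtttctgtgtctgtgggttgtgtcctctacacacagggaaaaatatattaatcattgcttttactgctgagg
Col7a1: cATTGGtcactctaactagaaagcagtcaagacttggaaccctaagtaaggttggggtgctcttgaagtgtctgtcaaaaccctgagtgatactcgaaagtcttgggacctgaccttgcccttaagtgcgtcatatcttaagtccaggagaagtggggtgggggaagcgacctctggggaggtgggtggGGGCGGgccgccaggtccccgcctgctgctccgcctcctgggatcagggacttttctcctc

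The windows differed in base composition. GC content was 84.4% for Agrn, 70.2% for Hspg2, 64.4% for Nid1, 62.0% for Col18a1, 56.4% for Col7a1 and 35.2% for Col3a1. Agrn held 11 GC boxes, some of which overlap, and Hspg2 held 5, while Col3a1 held no GC box and a single TATA box. The Agrn window overlaps the annotated locus Gm46878 and the Nid1 window overlaps Gm7426. Over the 41 genes of the set with a known start, 24 (58.5%) held a GC box in the 250 bases before it, against 46.7% of 16456 autosomal genes. A CCAAT box was found at 14 (34.1%), against 39.4% of all, and a TATA box at 5 (12.2%), namely Col10a1, Col11a2, Col13a1, Col17a1 and Col3a1, against 13.8% of all. The GLI sequence GACCACCCA, searched on both strands, was in 0 of the 41 windows and in 30 of all windows (0.182%). These are letter matches in the windows named, and the sequence of the peaks themselves was not analysed here.

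Across the whole series, the induced gene checked the labels: the D7 GLI1 list held 8 regions at Gli1 with folds of 9.30 to 31.9, of which 6 were absent from D7 control, while the D7 control list held 4 regions with folds of 3.96 to 13.3 and D5 control held 3 with folds of 4.40 to 6.95. All 8 regions of the D7 GLI1 list lay inside the gene. Whether their reads came from the cells' own Gli1 locus or from an introduced GLI1 sequence was not tested. A fold is the authors' enrichment of a peak over the background. In the D7 lists every fold was a whole multiple of 1 step, which gave the number of reads over the summit and a background of 4.70 reads per base with GLI1 and 4.56 in D7 control. The lowest fold listed was 2.46 with GLI1 and 2.52 in D7 control, 13 reads in both. The D5 list was called against a local background, so its folds are on another scale and comparisons with D5 carry differences in depth and calling. Peak numbers skip 1071 values with GLI1, 978 in D7 control and 0 in D5 control, so at a skip a called peak may be missing from the list. Gained regions are those of the D7 GLI1 list that D7 control lacks, and lost regions the opposite. Markers of other cell types were also counted. Over all genes 37.0% of GLI1 regions were gained and 29.4% of D7 control regions lost, and 58.3% of both together were gained. Primitive and parietal endoderm is an early producer of laminin and type IV collagen. Its markers had 25 of 50 GLI1 regions gained and 7 of 33 D7 control regions lost over 12 genes. Foxa2 alone had 11 gained and 0 lost, and Amn had no region. By gene, 5 of these markers had more gained and 2 more lost regions. Endothelial and blood markers had 28 of 54 gained and 13 of 37 lost over 8 genes, and neural progenitor markers 24 of 54 and 13 of 43 over 8. Cardiac progenitor markers had 14 of 42 and 16 of 45 over 11, and paraxial mesoderm markers 14 of 43 and 17 of 47 over 8. Pluripotency markers had 6 of 15 and 4 of 14 over 6, with no region at Pou5f1. The part of cell composition in the results at matrix genes was not tested, and in bulk samples a change in the number of open cells and a change per cell cannot be told apart.

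The matrix regions lay mostly within their genes and away from gene ends. With GLI1 75% of them had the summit inside the gene interval, in D7 control 71.7% and in D5 control 68.0%, against 59.5%, 59.4% and 58.4% of all gene-assigned regions of the same lists. Over 1 kb from either gene end were 80.2% of matrix regions with GLI1 (95% Wilson interval 74.8 to 84.7), 82.0% in D7 control (76.7 to 86.3) and 74.7% in D5 control (67.9 to 80.5), against 67.5%, 65.4% and 63.6% of all. All intervals here cover counting error only. The regions were narrower than average, with a median width of 383.5 bp with GLI1, 395 bp in D7 control and 180 bp in D5 control, against 459, 501 and 250 bp over all regions. They covered 142 kb, 134 kb and 42.6 kb of the genome in these lists.

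The comparison of D7 GLI1 with D7 control asked which chromatin differed after GLI1 was induced. A region counted as lacking in the other list when no region there overlapped it by 1 base. At matrix genes gains and losses nearly balanced: 99 of 248 GLI1 regions were gained (39.9%, interval 34.0 to 46.1), against a background of 37.0% over all gene-assigned regions, and 94 of 244 D7 control regions were lost (38.5%, interval 32.6 to 44.8), against a background of 29.4%. The share of gained regions was near its background. The lost share was above its background, and the gap was smaller away from gene ends. Among regions over 1 kb from a gene end, 90 of 200 were lost (45.0%, interval 38.3 to 51.9) against 41.4% of all, and 92 of 199 were gained (46.2%, interval 39.4 to 53.2) against 49.1% of all. Over all genes 14248 regions were gained and 10205 lost, so that 58.3% of the changed regions were gained, and a count with more gained than lost regions is by itself common to genes at large. At matrix genes this share was 51.3%. By gene, 25 had more gained than lost regions, 18 had more lost and 14 had equal numbers. With the D7 lists trimmed to equal length there were 86 gained and 99 lost regions, so the small lean to gains reversed. Gained and lost regions were mostly weak, with median folds of 4.04 and 3.78, while regions shared by both D7 lists had medians of 6.67 with GLI1 and 7.11 in D7 control. Counting only strong ones, with a fold that reached 2 times the lowest value listed in the D7 list it is set against (5.04 for gained and 4.91 for lost regions), 28 of 99 gained regions (28.3%, interval 20.4 to 37.8) were strong, against 22.8% of all gained regions, and 20 of 94 lost regions (21.3%, interval 14.2 to 30.6), against 24.0% of all lost.

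**Figure D1:**
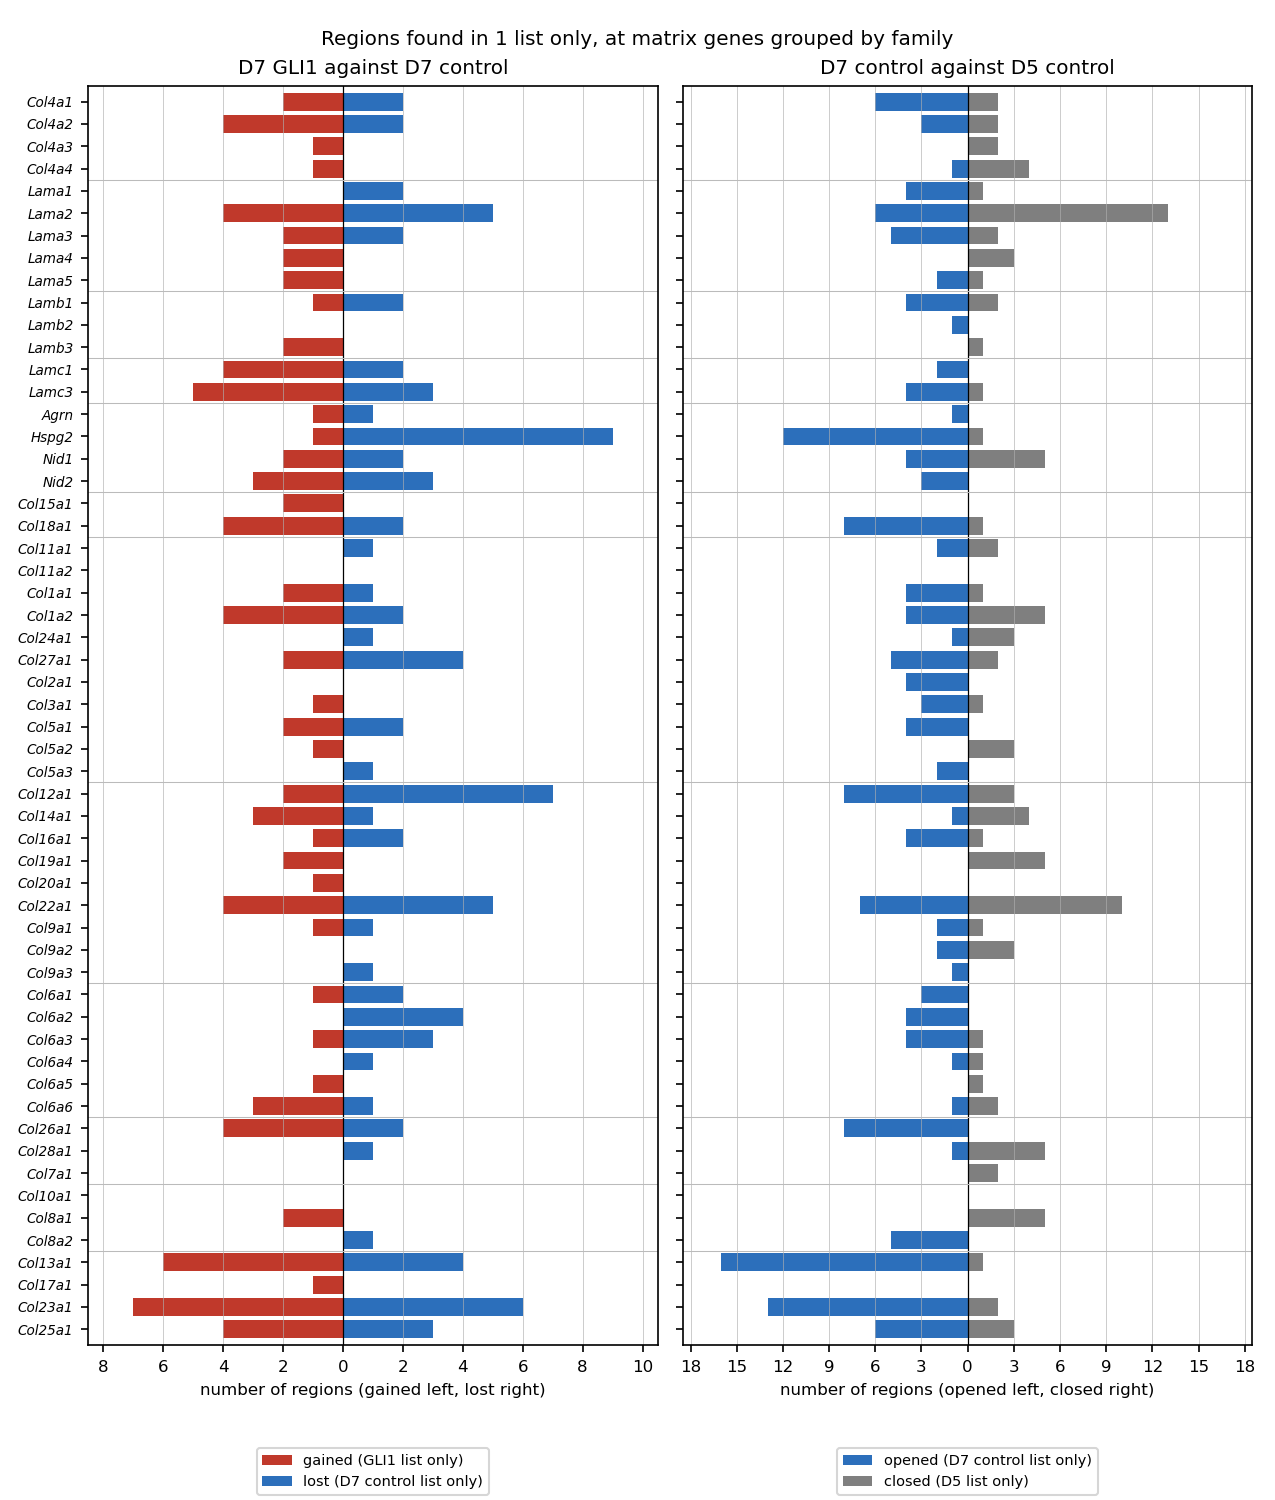
Number of regions found in 1 list only at the matrix genes shown, grouped by family from type IV collagens (top) to transmembrane collagens (bottom). The left panel sets D7 GLI1 (gained, bars to the left) against D7 control (lost, bars to the right) and the right panel D7 control (opened, left) against D5 control (closed, right); Hspg2 has the longest lost bar, with 9 regions against 1 gained, and Col13a1 the longest opened bar, with 16.

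The nidogens, perlecan and agrin had 7 of 20 GLI1 regions gained (35%, interval 18.1 to 56.7), against 37.0% of all. Of their 28 D7 control regions 15 were lost (53.6%, interval 35.8 to 70.5), against 29.4% of all. The interval of the lost share lay above its background, and the part of position was not tested by family. Among these components, which tie the basement membrane together, Hspg2 stood furthest to the side of losses. It encodes perlecan, the large heparan sulphate proteoglycan of basement membranes, and had 7 regions with GLI1 and 15 in D7 control, with 1 gained and 9 lost. The lost regions had folds of 2.70 to 7.20 with a median of 3.78, so most were weak, and 1 of the 9 was also listed at D5. The strongest of them, at chr4:137487628-137487998, had 39 reads over its summit in D7 control. At chr4:137497882-137499064, inside the gene, both lists had a region, of fold 5.09 from 28 reads with GLI1 and of fold 19.1 from 105 reads in D7 control, a ratio of 0.267. At the start, the fold was 35.6 with GLI1 and 33.3 in D7 control, so the difference lay within the gene and its promoter region was listed in both. With peaks of a −log10 q of at least 5 only, the count was 0 gained and 6 lost, and among strong regions 0 and 2.

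Nid1, the nidogen which bridges laminin and type IV collagen, had 2 gained and 2 lost regions, and Nid2, its relative, had 3 and 3. Both Nid1 loci with the lowest ratios lay inside the gene: chr13:13484321-13484776 had fold 2.81 with GLI1 and 9.0 in D7 control (ratio 0.312), and chr13:13474856-13475294 had 3.69 with GLI1 and 9.90 in D7 control (ratio 0.372). At Nid2 a strong lost region at chr14:19769537-19770391 had fold 11.7 and 64 reads in D7 control. All 3 gained Nid2 regions, the strongest being chr14:19738098-19738799 with fold 8.95 at 12.9 kb outside the gene, fall in a stretch of 396 kb where the D7 control list skips 6 peak numbers. Whether a D7 control peak was taken out at these positions was not tested, so they cannot be read as gains, and without them Nid2 had lost regions only. Agrn, a proteoglycan best known from the neuromuscular junction and also found in many basement membranes, had 1 gained region of fold 6.14 at chr4:156185995-156186648 and 1 lost region of fold 5.94 at chr4:156194360-156194910.

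The type IV collagens, which make the sheet itself, had 16 regions with GLI1, 12 in D7 control and 13 in D5 control at the 4 autosomal genes, with 8 gained and 4 lost. The shares were 50% gained (interval 28.0 to 72.0) and 33.3% lost (13.8 to 60.9). Both intervals included the backgrounds, 37.0% gained and 29.4% lost. Col4a1 and Col4a2 encode the chains of the common network and are transcribed in opposite directions from starts 21 bases apart. Col4a1 had 2 gained and 2 lost regions and Col4a2 had 4 and 2, and the pair together had 13 regions with GLI1, 11 in D7 control and 7 in D5 control. All 4 gained Col4a2 regions were under the fold for strong regions, with folds of 3.69 to 4.74, and among strong regions the count was 0 gained and 1 lost. Within Col4a2, chr8:11327813-11328514 had fold 7.37 from 41 reads with GLI1 and 3.42 from 18 reads in D7 control (ratio 2.16). Within Col4a1, chr8:11298290-11299296 went the other way, with fold 8.78 from 49 reads with GLI1 and 21.6 from 119 reads in D7 control (ratio 0.406). Col4a3 and Col4a4, the chains of specialised membranes such as that of the kidney filter, had 1 gained region each and no lost region; the Col4a3 region at chr1:82687514-82687841 had fold 5.62 and the Col4a4 region fold 2.81.

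The laminin alpha chains, which carry the sites for cell receptors, had 10 gained and 9 lost regions, the beta chains 3 and 2, and the gamma chains 9 and 5. For alpha chains the shares were 40% gained (interval 23.4 to 59.3) and 37.5% lost (21.2 to 57.3). For beta chains they were 33.3% (12.1 to 64.6) and 28.6% (8.22 to 64.1). The alpha and beta chain intervals included the backgrounds, 37.0% gained and 29.4% lost. Lama5, a widely used alpha chain of mature membranes, had 2 gained and no lost region, of fold 5.09 and 2.98, and Lama4, the chain of vessel walls, had 2 gained of fold 3.69 and 4.39. Each also had a shared locus that was lower with GLI1. At Lama5, chr2:180227285-180228264 had fold 6.14 with GLI1 and 13.7 in D7 control (ratio 0.449), while its other shared loci had ratios of 1.76 and 1.21. At Lama4, chr10:38965309-38965695 at the gene end had fold 3.69 with GLI1 and 7.74 in D7 control (ratio 0.476). At Lama1, the alpha chain of early embryonic membranes, there were 0 gained and 2 lost regions, with folds of 3.06 and 4.32, while its strongest region at the gene end stood at 37.4 with GLI1 and 33.3 in D7 control. Lama2, the alpha chain of muscle, had 4 gained and 5 lost, among them a gained region at chr10:27615026-27615520 of fold 8.95 and a lost one at chr10:27036779-27037425 of fold 8.46. Lama3, the alpha chain of skin laminin, had 2 and 2, and its gained region at chr18:12571030-12571388 had fold 9.13. Lamb1, the beta chain of most laminins, had 1 and 2. Lamb2 had no gained and no lost region, and Lamb3, the beta chain of skin laminin, had 2 gained of fold 3.69 and 4.39.

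The gamma chains had high shares of both kinds, 9 of 11 GLI1 regions gained (81.8%, interval 52.3 to 94.9) and 5 of 7 D7 control regions lost (71.4%, interval 35.9 to 91.8), on few regions. Of their changed regions 64.3% were gained, near the share over all genes. Lamc3 had 5 gained and 3 lost regions, and its gained regions were the stronger ones: 3 of the 5 and none of the 3 were strong. Those 3 strong gained regions had folds of 5.27, 6.67 and 7.72 and lay between chr2:31884706-31885128 and chr2:31892601-31893636, on both sides of a shared locus at the gene end, chr2:31887032-31887410, of fold 7.20 with GLI1 and 2.88 in D7 control (ratio 2.50). Lamc1, the gamma chain of most laminins, had 4 gained and 2 lost regions, and the gained one at chr1:153224260-153224875 had fold 9.48 from 53 reads.

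The multiplexins Col15a1 and Col18a1, collagens of basement membranes that carry heparan or chondroitin sulphate, had 15 regions with GLI1, 11 in D7 control and 4 in D5 control, with 6 gained and 2 lost. The shares were 40% gained (interval 19.8 to 64.3) and 18.2% lost (5.14 to 47.7). Both intervals included the backgrounds, 37.0% gained and 29.4% lost. Col15a1 had 2 gained and no lost region, the stronger at chr4:47183892-47184794 with fold 8.25 and 23.3 kb outside the gene; with peaks of a −log10 q of at least 5 it had 1 gained and 1 lost. At Col18a1, the source of the fragment endostatin, 4 regions were gained and 2 lost, none of them strong. With the D7 lists trimmed to equal length its count was 1 gained and 2 lost, so the lean to gains did not hold. Its shared regions differed more. The locus chr10:77197291-77198642 had fold 57.0 from 324 reads with GLI1 and 9.18 from 50 reads in D7 control, a ratio of 6.21. It was the highest ratio of the 141 shared matrix loci, and the 95% interval of its read ratio, for counting error only, was 4.65 to 8.64. It lay 31.5 kb outside Col18a1, its next nearest gene Pofut2 lay 61.1 kb away, and no D5 region overlapped it. Within the gene, chr10:77138196-77138686 had fold 10.9 with GLI1 and 4.14 in D7 control (ratio 2.63).

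Fibrillar collagens had equal numbers, with 12 gained and 12 lost regions over 11 genes, of which 4 had more gained and 4 more lost. These were 26.1% of their 46 GLI1 regions (interval 15.6 to 40.3), against 37.0% of all. They were 25.5% of their 47 D7 control regions (interval 15.3 to 39.5), against 29.4% of all. Both shares were below their backgrounds, which the intervals included. Col1a2, a chain of type I collagen, had 4 gained and 2 lost, or 2 and 2 with peaks of a −log10 q of at least 5. Its locus at chr6:4455944-4457270, 48.7 kb outside the gene, had fold 19.3 from 109 reads with GLI1 and 5.76 from 31 reads in D7 control (ratio 3.35). Col1a1, the other chain, had a locus at its gene end, chr11:94935901-94936519, of fold 8.60 with GLI1 and 2.52 in D7 control (ratio 3.41). The D7 control value there was the lowest fold that list holds, from 13 reads, and the interval of the read ratio was 1.91 to 7.20. Beside it, the stronger Col1a1 locus chr11:94936549-94937657 had fold 22.6 with GLI1 and 16.9 in D7 control (ratio 1.34). The other shared Col1a1 loci had ratios of 1.10, 0.763 and 0.739. Col3a1, the fibrillar collagen of vessels and soft tissue, had a gained region inside the gene at chr1:45315986-45317425 of fold 13.3 from 75 reads, and D5 control also listed it. In the other direction, Col5a1, which sets fibril width, had a locus at chr2:28016263-28016911 of fold 3.16 with GLI1 and 13.5 in D7 control (ratio 0.234). Col27a1, a cartilage collagen, had 2 gained and 4 lost regions.

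Collagens that bind to fibrils, 9 genes, had 14 of 29 GLI1 regions gained (48.3%, interval 31.4 to 65.6), against 37.0% of all. Of their 33 D7 control regions 17 were lost (51.5%, interval 35.2 to 67.5), against 29.4% of all. The interval of the lost share lay above its background, and the part of position was not tested by family. Col12a1, a fibril-associated collagen of tendon and dense connective tissue, had 2 gained and 7 lost. Its region chr9:79610203-79610692, inside the gene, was the strongest lost region of the set, with fold 16.4 from 90 reads in D7 control. With peaks of a −log10 q of at least 5 the Col12a1 count was 2 gained and 3 lost. Col22a1, found at junctions of muscle and tendon, had 4 gained and 5 lost, yet its shared loci chr15:72033660-72035108 and chr15:71856069-71856564 were higher with GLI1, at folds of 27.7 and 7.72 with GLI1 against 12.1 and 3.42 in D7 control. At Col19a1 there were 2 gained and no lost region. The type VI collagens, microfibril proteins around muscle and other cells, had 6 of 12 GLI1 regions gained (50%, interval 25.4 to 74.6). Of their 16 D7 control regions 11 were lost (68.8%, interval 44.4 to 85.8). The interval of this lost share also lay above its background, on few regions. Col6a2 had 0 gained and 4 lost, all of fold 3.06 to 4.86 and none strong, and Col6a3 had 1 gained and 3 lost. A lost region at Col6a4, chr9:105998172-105999183, had fold 9.54, and one at chr10:76731883-76732367, 6.04 kb outside Col6a1, had fold 8.46. The short-chain collagens had 2 of 7 GLI1 regions gained and 1 of 6 D7 control regions lost.

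The transmembrane collagens Col13a1, Col17a1, Col23a1 and Col25a1, which sit in the cell membrane, gave a different picture for presence and for height. By presence they were near the background, with 18 of 45 GLI1 regions gained (40%, interval 27.0 to 54.5) against 37.0% of all, and 13 of 41 D7 control regions lost (31.7%, interval 19.6 to 47.0) against 29.4% of all. Heights differed more. Among their 27 shared loci, 0 were at least 2-fold higher with GLI1 and 7 at least 2-fold lower. The lowest ratio of the set was at chr3:130388642-130390045 in Col25a1, with fold 3.86 from 21 reads with GLI1 and 29.3 from 162 reads in D7 control, a ratio of 0.132 (read ratio interval 0.0758 to 0.199). In Col23a1, chr11:51499797-51500571 had fold 3.34 with GLI1 and 16.2 in D7 control (ratio 0.206), and chr11:51541983-51544200 had 10.2 with GLI1 and 43.7 in D7 control (ratio 0.233). In Col13a1, chr10:61879350-61880712 had fold 5.09 with GLI1 and 21.1 in D7 control (ratio 0.242). None of these loci was listed at D5. The same genes also held strong gained regions: chr11:51388786-51389602 in Col23a1 had fold 15.8 from 89 reads, chr10:61823139-61824240, 14.9 kb outside Col13a1, had fold 10.5 from 59 reads, and chr3:130572760-130573581 in Col25a1 had fold 10.4. Strong lost regions stood beside them, of fold 7.38 each at chr11:51458678-51459173 and chr10:61887469-61887969. The lost Col23a1 region falls where the GLI1 list skips 1 peak number within 35.6 kb. Col26a1, the type XXVI collagen gene, had 4 gained and 2 lost regions, or 0 gained and 1 lost among strong ones. It held a lost region of fold 9.18 at chr5:136810959-136811620, and a shared locus at chr5:136869536-136870472 of fold 6.67 with GLI1 and 25.02 in D7 control (ratio 0.267).

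**Figure D2:**
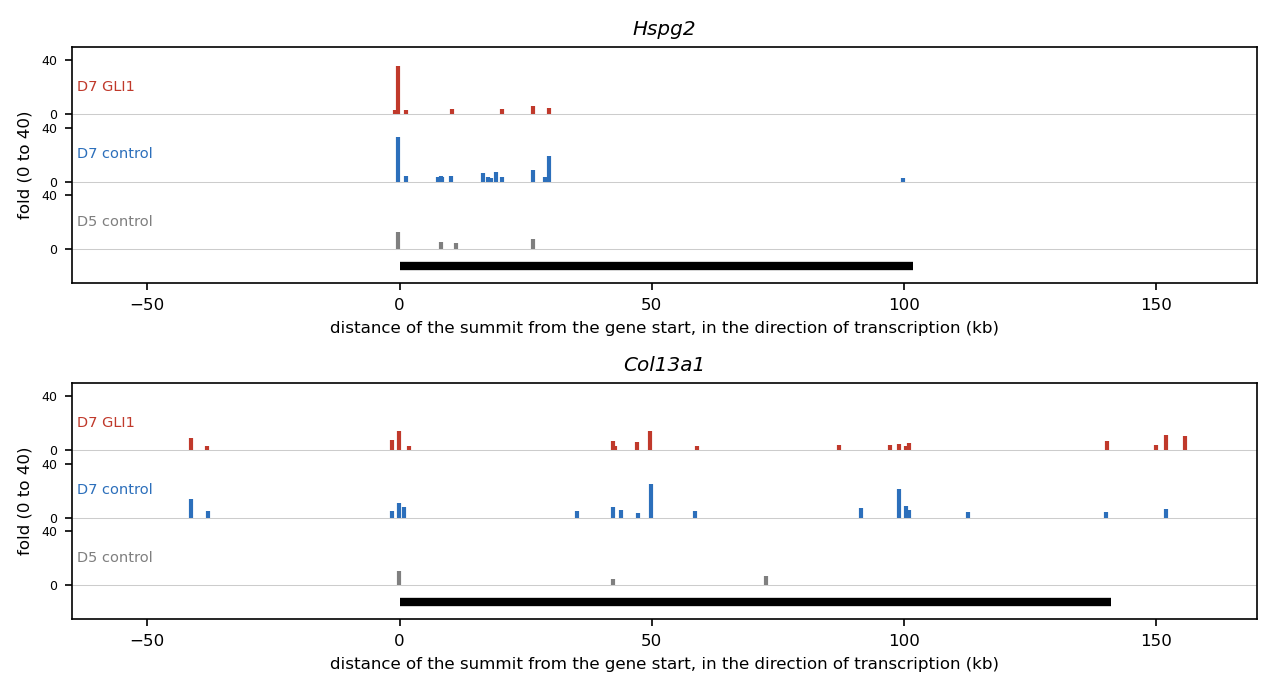
Regions along Hspg2 and Col13a1, drawn at the distance of the summit from the gene start in kb, with the height of each line giving the fold on a scale of 0 to 40 for D7 GLI1 (top), D7 control (middle) and D5 control (bottom) and the black bar the gene. Hspg2 has 7 lines with GLI1, 15 in D7 control and 4 in D5 control, and Col13a1 has 19 with GLI1, 18 in D7 control and 3 in D5 control; D5 folds are on another scale.

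Over all 141 loci present in both D7 lists at matrix genes, 9 were at least 2-fold higher with GLI1 (6.38%, interval 3.39 to 11.7), against 3.97% of 22979 loci at all genes, and 18 were at least 2-fold lower (12.8%, interval 8.23 to 19.3), against 6.53% of all. Of the 18 lower loci 7 belonged to transmembrane collagens. The interval of the share of lower loci lay above its background, and that of the share of higher loci included it. These intervals count loci as independent, though several lower loci lay in the same gene, such as Col23a1. The background was not limited to loci over 1 kb from a gene end, where the gap in lost regions was smaller. The part of position in the share of lower loci was thus not tested. The middle of the distribution hardly moved, with a median ratio of 1.02 at matrix genes and 1.07 at all genes, and 73 loci above and 68 below 1. The matrix loci were more spread, since the quartiles were 0.722 and 1.34 at matrix genes and 0.866 and 1.29 at all genes. By family, median ratios ran from 0.671 over 8 loci of type IV collagens and 0.797 over 27 of transmembrane collagens to 1.79 over 9 of multiplexins and 1.85 over 2 of laminin gamma chains, with 1.19 over 30 of fibrillar collagens, 1.24 over 15 of fibril-associated collagens, 0.897 over 13 of laminin alpha chains and 0.886 over 13 of nidogens, perlecan and agrin. A threshold of 1.5-fold gave 28 higher and 29 lower loci. The share of all loci past 1.5-fold was not counted, so these numbers have no background beside them.

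**Figure D3:**
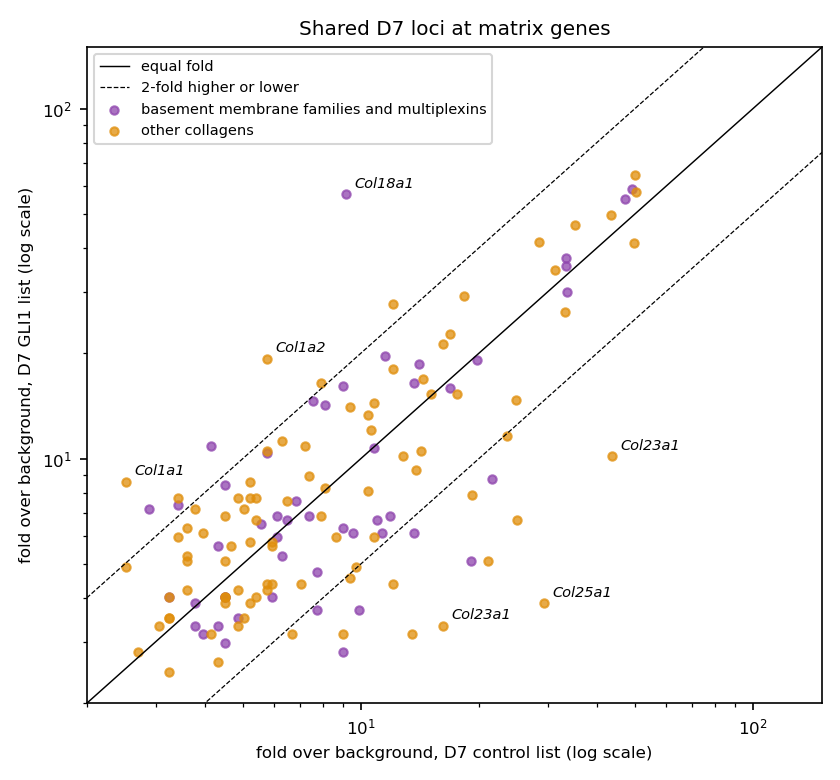
Each point is a locus at a matrix gene present in both D7 lists, with the fold in the D7 GLI1 list on the vertical axis and in the D7 control list on the horizontal axis, both log scales; the solid line marks equal folds and the dashed lines 2-fold. Of 141 loci, 9 lie on or above the upper dashed line, led by Col18a1 at 57.0 with GLI1 against 9.18, and 18 lie on or below the lower one, down to Col25a1 at 3.86 with GLI1 against 29.3.

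At gene starts the picture was one of presence in every list. For 41 of the 57 genes the start was known, and a region lay within 1 kb of it at 28 genes with GLI1 (68.3%), at 28 in D7 control (68.3%) and at 30 in D5 control (73.2%), against 62.4%, 60.9% and 61.6% of 16456 autosomal genes. In 24 genes all 3 lists had it, and in 8 none did. The intervals, 53.0 to 80.4 for either D7 list and 58.1 to 84.3 for D5 control, include the shares of all genes. Col16a1, Col3a1 and Col9a1 had a start region in both D7 lists and none in D5 control. Col9a1 has 2 annotated starts. Its D7 summits counted here lay 18.7 kb inside the gene from the outer start, so the region was counted through the inner one. The D5 list alone had one at Col4a4, Col6a6, Col7a1 and Lamb3. Col7a1, the anchoring fibril collagen of skin, had a D5 fold of 3.49 there. Col8a1 had a start region with GLI1 and in D5 control, of fold 5.79 and 4.20, and Col5a3 in D7 control and D5 control, of fold 3.06 and 5.99.

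Of the 27 genes with a start region in both D7 lists, 20 were higher and 7 lower with GLI1, and none passed 2-fold in either direction. Col4a1 and Col4a2 share 1 start region, so these are 26 distinct regions, 19 higher and 7 lower. The median ratio was 1.21, against 1.11 over 9865 genes of which 70.7% were higher with GLI1, so a higher start was common to genes at large. The 16 genes without a known start are not in these counts. Among them, loci at a gene end passed 2-fold at Col1a1 (ratio 3.41), Lamc3 (2.50) and Lama4 (0.476). Others, such as Lamc1 (1.20) and Nid2 (0.886), did not. Col5a1 had the strongest start, with fold 64.8 with GLI1, 50.04 in D7 control and 9.24 in D5 control. Col11a1, the fibrillar chain of cartilage, had fold 57.7 with GLI1, 50.2 in D7 control and 14.3 in D5 control. Agrn had 55.1 with GLI1, 47.2 in D7 control and 8.44 in D5 control. The start shared by Col4a1 and Col4a2 had fold 19.7 with GLI1 and 11.5 in D7 control (ratio 1.71). Lamb1 and Lamb2 were nearly equal, at 19.1 and 10.7 with GLI1 against 19.8 and 10.8 in D7 control. At Col19a1 the ratio was 1.90, from folds of 7.20 with GLI1 and 3.78 in D7 control, but the GLI1 summit lies in a stretch where the D7 control list skips 2 peak numbers, so the D7 control value may lack a peak. These ratios set the strongest region within 1 kb in each list against each other. So taken, of the other starts the ratio was highest at Col3a1, at 1.74. It was lowest at Lama2, 0.644 from folds of 6.14 with GLI1 and 9.54 in D7 control. At Col18a1 the strongest regions, of fold 10.4 with GLI1 and 7.38 in D7 control, did not overlap. The D7 control region that overlapped this GLI1 region had fold 5.76, which gives a higher ratio than at Col3a1. Col3a1, whose promoter window held a TATA box and no GC box, had a modest start of fold 5.97 with GLI1 and 3.42 in D7 control.

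**Figure D4:**
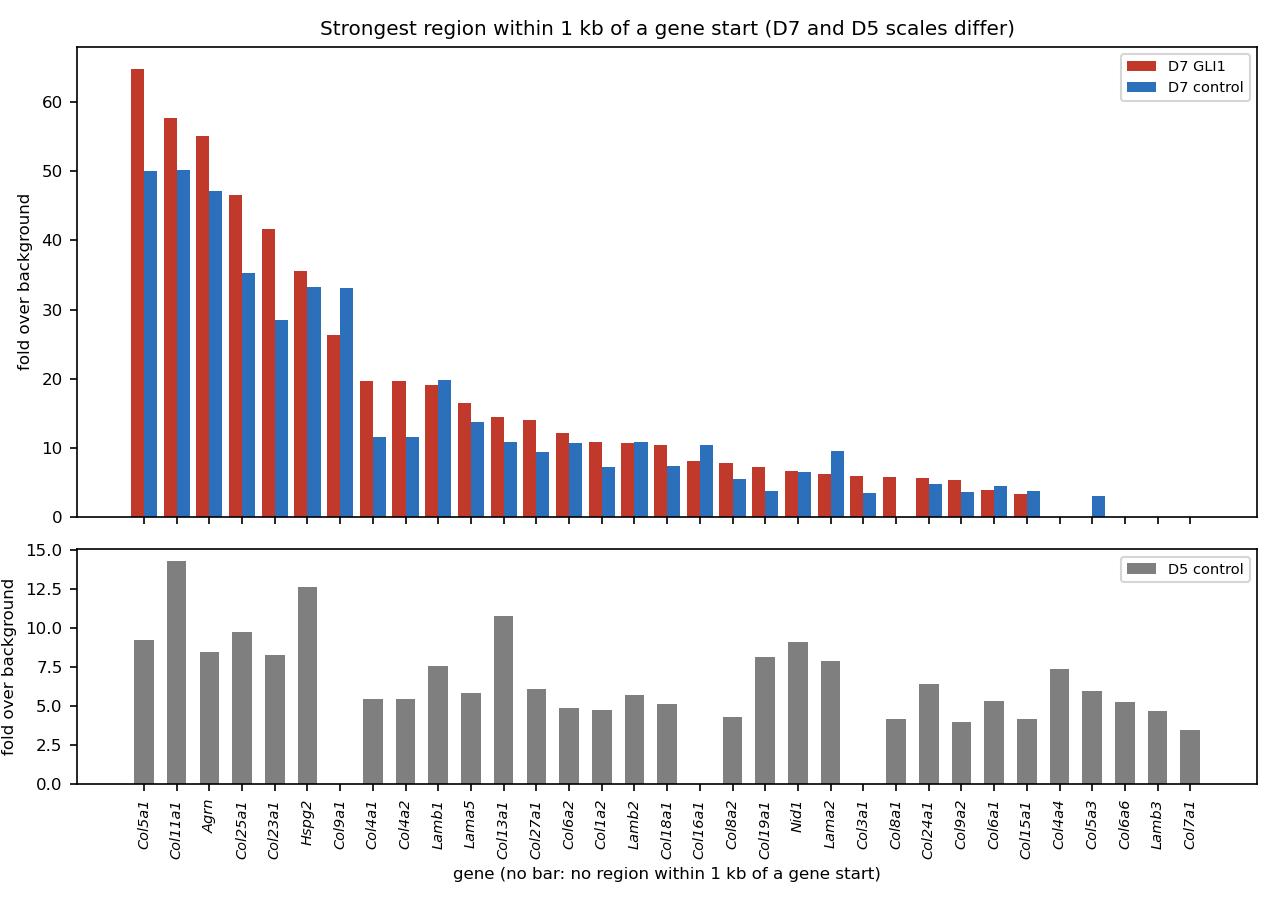
Fold over background of the strongest region within 1 kb of the start of each matrix gene, as bars for D7 GLI1 and D7 control (upper panel) and for D5 control (lower panel, another scale). Starts range from Col5a1 at 64.8 with GLI1 and 50.04 in D7 control down to genes such as Col7a1, listed in D5 control only at 3.49.

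The comparison of D7 control with D5 control asked how the matrix genes changed as differentiation went on. A region is called opened when D7 control has it and no D5 region overlaps it, and closed in the opposite case. At matrix genes 182 of 244 D7 control regions were opened (74.6%, interval 68.8 to 79.6), against a background of 53.1%, and 111 of 178 D5 regions were closed (62.4%, interval 55.1 to 69.1), against a background of 45.3%. Both shares were above their backgrounds. Away from gene ends 169 of 200 were opened (84.5%, interval 78.8 to 88.9) against 71.0% of all, and 100 of 133 were closed (75.2%, interval 67.2 to 81.8) against 65.2% of all. With GLI1 in place of D7 control the shares were 176 of 248 GLI1 regions absent from D5 (71.0%, interval 65.0 to 76.3), against 55.2%, and 100 of 178 D5 regions absent from GLI1 (56.2%, interval 48.8 to 63.3), against 41.9%. Away from gene ends these were 81.4% of 199 regions against 71.7% of all, and 69.9% of 133 against 61.2%. Both D7 lists are set against the same D5 list, so these are not independent. By gene, 31 had more opened regions, 19 more closed and 7 equal numbers, and the depth and calling of the D5 list bear on all these counts.

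By family, opened regions are set beside all D7 control regions of the family and closed regions beside its D5 regions. Over all genes 53.1% were opened and 45.3% closed. Fibrillar collagens had 29 of 47 opened and 17 of 37 closed, and type VI collagens 13 of 16 and 5 of 8. Nidogens, perlecan and agrin had 20 of 28 and 6 of 15, and multiplexins 8 of 11 and 1 of 4. Type IV collagens had 10 of 12 and 10 of 13, and laminin alpha chains 17 of 24 and 20 of 27. Fibril-associated collagens had 25 of 33 and 27 of 35. Transmembrane collagens opened most by count, with 35 of 41 regions opened and 6 of 12 closed. Of these genes Col13a1 had 16 opened and 1 closed, Col23a1 had 13 and 2, and Col25a1 had 6 and 3. Among basement membrane genes Hspg2 had 12 opened and 1 closed, so the gene with the most regions lost with GLI1 was among those with the most regions opened between D5 and D7 control, and both counts rest on the same D7 control list. Col18a1 had 8 and 1, Col26a1 8 and 0, Col12a1 8 and 3, Col8a2, a short-chain collagen of the cornea and vessels, 5 and 0, and Col4a1 6 and 2. The strongest opened region was at chr15:97989227-97992008 in Col2a1, the main cartilage collagen, with fold 49.9 from 276 reads in D7 control, and the GLI1 list had fold 41.4 there. Col2a1 also had 0 gained and 0 lost regions.

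Closing was led by Lama2, with 6 opened and 13 closed regions, whose closed regions had D5 folds of 4.11 to 8.92. Col22a1 had 7 and 10, Col28a1 1 and 5, Col14a1 1 and 4, Lama4 0 and 3, Nid1 4 and 5, Col4a3 0 and 2, and Col4a4 1 and 4. Col8a1 had 0 opened and 5 closed regions, and the GLI1 list held 2 of the 5, which were its 2 gained regions, of fold 4.91 and 5.79. At Col19a1 0 were opened and 5 closed, and the closed ones included the strongest closed region of the set, chr1:24613001-24613233 with D5 fold 31.2, and its neighbour chr1:24612654-24612848 with fold 15.1, at 25.2 and 24.8 kb outside the gene. Both lie where each D7 list skips 2 peak numbers, within 46.0 kb with GLI1 and 91.1 kb in D7 control, so they cannot be read as closed; this stretch of chromosome 1 is known for a nuclear copy of mitochondrial DNA, whose reads are hard to place. Of all 111 closed regions 3 fall in such a skip, all at Col19a1, as do 3 of 99 gained regions, all at Nid2, and 2 of 94 lost regions, both at Col23a1.

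Pairs of neighbouring matrix genes differed from one another. Col4a3 and Col4a4, which lie side by side, had 3 regions with GLI1, 1 in D7 control and 6 in D5 control, the reverse of Col4a1 and Col4a2, which had more regions at D7. Col6a1 and Col6a2 had 5 regions with GLI1, 9 in D7 control and 2 in D5 control, with 1 gained and 6 lost. Col6a5 and Col6a6, also neighbours, had 5 with GLI1, 2 in D7 control and 4 in D5 control, with 4 gained and 1 lost. Col3a1 and Col5a2 had 6 with GLI1, 4 in D7 control and 5 in D5 control, and the 2 gained regions of this pair had no lost region beside them.

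Genes that work with these proteins were counted in the same way, from lists of 61 genes in all. Of their 281 GLI1 regions 118 were gained (42.0%, interval 36.4 to 47.8), against 37.0% of all, and of their 256 D7 control regions 95 were lost (37.1%, interval 31.4 to 43.2), against 29.4% of all. The lost share was thus above its background, and the interval of the gained share included its background. Partner regions were not compared by distance from gene ends, so the part of position in the lost share was not tested. Enzymes and chaperones of collagen synthesis had 30 gained and 21 lost, matrix receptors 25 and 19, other basement membrane proteins 43 and 35, and matrix proteases and their inhibitors 20 and 20. In this order the gained shares were 42.3%, 43.1%, 41.3% and 41.7%, and the lost shares 33.3%, 35.8%, 36.8% and 44.4%. Of these only the lost share of proteases and inhibitors had an interval, 30.9 to 58.8, that left out its background. P4ha1, a subunit of the prolyl hydroxylase that stabilises the triple helix, had 6 gained and 1 lost, and Adamts3, which trims procollagen, had 5 and 0. Loxl1, a crosslinking enzyme of elastin and collagen, had 2 and 7. Serpinh1, the collagen chaperone, had 1 and 2. Among receptors, the integrin genes Itga3 and Itga1, for laminin and for collagen binding, differed, with 4 gained and 1 lost at Itga3 and 1 gained and 4 lost at Itga1. Itga8, a chain of the nephronectin receptor, had 1 gained and 3 lost, and its ligand gene Npnt had 0 gained and 4 lost. Smoc1, a secreted calcium-binding protein of basement membranes, had 9 and 2. Frem2 and Frem1, relatives in the Fraser complex of epithelial basement membranes, also differed, with 7 gained and 1 lost at Frem2 and 0 gained and 7 lost at Frem1. Mmp14, a membrane-bound collagenase, had 4 and 0, Mmp2, the type IV collagenase that it activates, 5 and 2, Adamts9 1 and 6, Mmp15 0 and 2, and the inhibitor Timp3 2 and 4. With the D7 lists trimmed to equal length these genes together had 97 gained and 100 lost regions. From D5 to D7 control 169 of their 256 D7 control regions were opened, and 97 of their D5 regions were closed. Over all genes 53.1% of D7 control regions were opened and 45.3% of D5 regions closed. Intervals for these partner shares were not computed, and more opened than closed regions is by itself common to genes at large.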

How the data were processed

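ATAC-seq peak lists were used as deposited, 1 for each of the 3 groups, pooled over 3 D7 GLI1, 3 D7 control and 2 D5 control libraries. Per the submitters' processing notes the tools were Bowtie2 2.3.2, SAMtools 1.5, Picard and MACS2 2.1.1, with the build mm10. In the deposited lists the authors give each peak a fold enrichment (a ratio), a −log10 p and −log10 q, a score, and an offset of the summit in bases. That the control list is of D7 was inferred, since its name is the counterpart of the doxycycline one and D5 has its own. Overlapping peaks of a list were merged, the strongest peak gave the summit and fold, and each summit on chromosomes 1 to 19 went to the nearest RefSeq protein-coding gene interval within 100 kb. Where a summit lay in several genes, the gene with the nearer end was taken. Loci for fold ratios join the regions of both D7 lists wherever they overlap. Reads over a D7 summit came from the fold step, for which 100% of folds were whole multiples to within 0.001 steps. Exact intervals of read ratios and Wilson intervals of shares, both at 95%, cover counting error only. Gene starts and promoter sequences came from RefSeq, and starts were not used for 16 genes of the set. Depth per library was not used here. Python 3.11.15, pandas 2.3.3 and SciPy 1.17.1 were used, and merging was tested on simulated data. Read recovery was tested there with the background already given, so the fit of the fold step was not tested in this way. The members, gene lists and markers were chosen with earlier results of these data known.

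1 gene of the set is counted in the totals but not reported here by name. The other named genes were every type IV collagen, multiplexin, laminin, nidogen, perlecan and agrin gene, then 8 genes at each end of the order by gained minus lost, 8 at each end by opened minus closed, the 8 gained and 8 lost regions of highest −log10 q, the 8 highest and 8 lowest fold ratios, and 2 genes at each end of each partner list. Other genes named, such as Col2a1 and Col9a1, were chosen after their values were seen. Alternatives were a −log10 q of at least 5, a larger overlap, genes within 25 kb, the nearest gene end, D7 lists of equal length, strong regions only and leaving out a gene.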

Additional observations from a re-analysis of the deposited data

How the results depend on the processing

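Gained minus lost at matrix genes was 5 (99 and 94), which is small against either count. With the D7 lists trimmed to equal length, by −log10 q, it was -13 (86 and 99), the opposite direction, and with strong regions only it was 8 (28 and 20). The other alternatives kept its direction, with values of 4 to 15, including 13 without Hspg2 and 4 without Col23a1. Opened minus closed was 71, and 93 (146 and 53) with peaks of a −log10 q of at least 5; the other alternatives gave 65 to 78. Partner genes had a gained minus lost count of 23, and -3 (97 and 100) with equal list lengths, and the other alternatives gave 15 to 32. Shared loci past 2-fold numbered 27, and 57 (28 higher and 29 lower) past 1.5-fold; 10 higher and 16 lower were counted with folds multiplied by each list's background, and 18 loci in all with peaks of a −log10 q of at least 5. Start regions in all 3 lists were found at 24 genes, and at 19 within 250 bases. The cause of these changes was not tested. No paired analysis was possible because libraries are pooled within each list, which also prevents leaving out a library. Leaving out Hspg2, joining loci otherwise (32 past 2-fold) and leaving out regions in skips of peak numbers (4 and 74) were chosen after seeing the data. Depth limits weak regions most, since a region of 13 reads is at the floor of both D7 lists.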

Other observations

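The X-linked type IV collagen genes lie outside the autosomal set. Col4a5, a chain of the kidney filter membrane, had 1 region in each D7 list, of fold 5.27 with GLI1 and 4.5 in D7 control, and none in D5 control. Col4a6, its neighbour, had no region with GLI1 or in D7 control and 1 in D5 control, of fold 4.36.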
